A study of Mus musculus with 13 samples.

Results

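Out-of-frame T cell receptor (TCR) α rearrangements were examined in rescued regulatory T (Treg) cells. A member was any clonotype with a TRAV and a TRAJ segment whose CDR3, the hypervariable junction made of the V end, inserted bases and the J start, had a nucleotide length that was not a multiple of 3. Of the 90369 clonotypes in the 13 deposited tables, 90248 joined TRAV to TRAJ, and 11364 of these were out of frame. Another 78425 were functional, with a CDR3 that translates into amino acids alone, and 459 were in frame with a stop codon. The frame mark that the authors put in the amino-acid sequence and the nucleotide length disagreed for 0 clonotypes.

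The cells came from male C57BL/6 mice with the Foxp3LSL/y and Cd4creERT2 alleles. In these mice a removable Thy1.1-STOP cassette silences Foxp3, and a tamoxifen-activated Cre made from the Cd4 locus, active in cells that use this locus, takes it out and restores Foxp3 with a GFP reporter. The mice were all given 4-hydroxytamoxifen (4-OHT) once, at 14 days of age, and no untreated or Foxp3-sufficient mice were among the TCR samples. TCRβ+CD4+GFP+Thy1.1- cells were sorted from spleen pooled with lymph node, and their Trac transcripts were amplified by 5′ RACE and sequenced. There were 2 samples at 1.5 months after 4-OHT (mice of 8 weeks), 4 samples at 3 months (3.5 months old), 2 at 5 months (5.5 months old) and 5 at 7 months (7.5 months old). The labels do not say that replicates were separate mice, so p-values measure the spread between these samples, which may be partly technical.

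A developing T cell joins a TRAV to a TRAJ segment on each TCRα allele, with bases trimmed from the segment ends and others added by terminal transferase, and can go on to rearrange again with farther V and J segments. A joint that shifts the reading frame makes no α chain, so it is never tested for signaling in the thymus, and it persists in cells whose other allele encodes a working chain. Its transcript reaches a premature stop codon and is a substrate of nonsense-mediated decay, the pathway that degrades such messages.

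A small set of sequences shows what these joints look like. The first 6 were found in the most samples, with ties, as among the 24 clonotypes found in 3 samples, settled by the mean share of counts, and the last 3 were each the most abundant out-of-frame clonotype of a time point (the TRAV3-3/TRAJ31 joint held that place at 3 months). CDR3 sequences are written 5′ to 3′, and capitals mark bases between the deposited V end and J start.
TRAV12-4/TRAJ24: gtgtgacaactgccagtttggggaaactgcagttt
TRAV3-3/TRAJ31: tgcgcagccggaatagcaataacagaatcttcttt
TRAV15-2-DV6-2/TRAJ38: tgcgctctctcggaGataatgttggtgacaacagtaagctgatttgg
TRAV3-3/TRAJ48: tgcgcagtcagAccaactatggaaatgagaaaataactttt
TRAV1/TRAJ23: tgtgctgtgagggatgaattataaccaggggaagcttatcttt
TRAV13-1/TRAJ52: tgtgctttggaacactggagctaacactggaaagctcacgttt
TRAV3-3/TRAJ27: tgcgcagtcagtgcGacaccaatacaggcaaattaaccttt
TRAV13D-2/TRAJ31: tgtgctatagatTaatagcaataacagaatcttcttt
TRAV3D-3/TRAJ15: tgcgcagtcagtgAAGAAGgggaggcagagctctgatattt

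The TRAV3-3/TRAJ31 joint, 35 bases long, kept 7 V bases and 28 J bases by the deposited positions, with 0 between them, and its deposited J start lies before the annotated 5′ end of TRAJ31. It had 5034 counts in 3 months replicate 1, which was 0.622% of that sample's TCRα counts and rank 7 among all its clonotypes, and 4, 128 and 1 counts in 3 months replicate 2, 7 months replicate 1 and 7 months replicate 5. An out-of-frame joint thus stood among the most abundant α transcripts of that sample. TRAV3D-3/TRAJ15, with 6 inserted bases, had 3177 counts (0.558%) in 7 months replicate 5 and 4 in 3 months replicate 1. TRAV13D-2/TRAJ31 had 1379 counts (0.236%) in 5 months replicate 1, and TRAV3-3/TRAJ27 had 771 (0.123%) in 1.5 months replicate 2, and each was listed in that sample alone.

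Of the other recurrent joints, TRAV15-2-DV6-2/TRAJ38 had 1383, 1 and 1 counts in its 3 samples, and TRAV3-3/TRAJ48 had 622, 93 and 1. TRAV1/TRAJ23 had 158, 242 and 50 counts, and TRAV13-1/TRAJ52 had 65, 6 and 277. The clonotype found in the most samples, TRAV12-4/TRAJ24, was listed in 8 samples at 1 to 8 counts each. Its V gene is annotated as a pseudogene, its CDR3 does not open with a cysteine codon, and its V and J alignments overlap. Those of TRAV1/TRAJ23 (15 V and 30 J bases in 43) and of TRAV13-1/TRAJ52 (13 and 33 in 43) overlap as well.

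Out-of-frame clonotypes were a steady minority of each library. The 13 libraries held 509818 to 936831 counts in all and 684 to 1110 out-of-frame clonotypes each, a number that bounds the precision of every share given here. These clonotypes used 104 V genes, all 46 J genes of the tables and 2394 V-J pairs, against 3632 pairs among functional clonotypes. Of the class, 2133 (18.8%) lay 1 or 2 inserted or deleted bases (indels) from a larger functional clonotype of the same sample. For 718 (6.32%) the distance was 1 indel. Single counts made up 25.5% ± 3.47 of out-of-frame and 17.1% ± 5.34 of functional clonotypes (SD, n = 13). Under 10 counts were 42.2% ± 3.18 and 26.1% ± 6.21. How many were sequencing errors was not tested. Some libraries shared far more clonotypes than the rest: 73 out-of-frame clonotypes were common to 1.5 months replicate 1 and 3 months replicate 4, 64 to 3 months replicate 4 and 5 months replicate 1, and 39 to 3 months replicates 1 and 2, against a median of 4.5 over all 78 pairs. Whether cells or reads passed between libraries was not tested, and sharing is given with and without the 3 libraries of the 2 highest pairs.

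The share of TCRα clonotypes that were out of frame was 11.8% and 12.8% at 1.5 months. It was 13.5%, 12.5%, 11.8% and 12.2% at 3 months, 12.5% and 12.4% at 5 months, and 12.6%, 12.5%, 14.3%, 12.4% and 12.6% at 7 months. The time points overlapped, with a mean of 12.6% ± 0.658 (SD, n = 13). The same clonotypes took only 6.83% ± 0.547 (SD, n = 13) of the TCRα counts, with a range of 5.80% to 7.67%, so a typical out-of-frame clonotype was represented by fewer counts than a functional one.

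**Figure D1:**
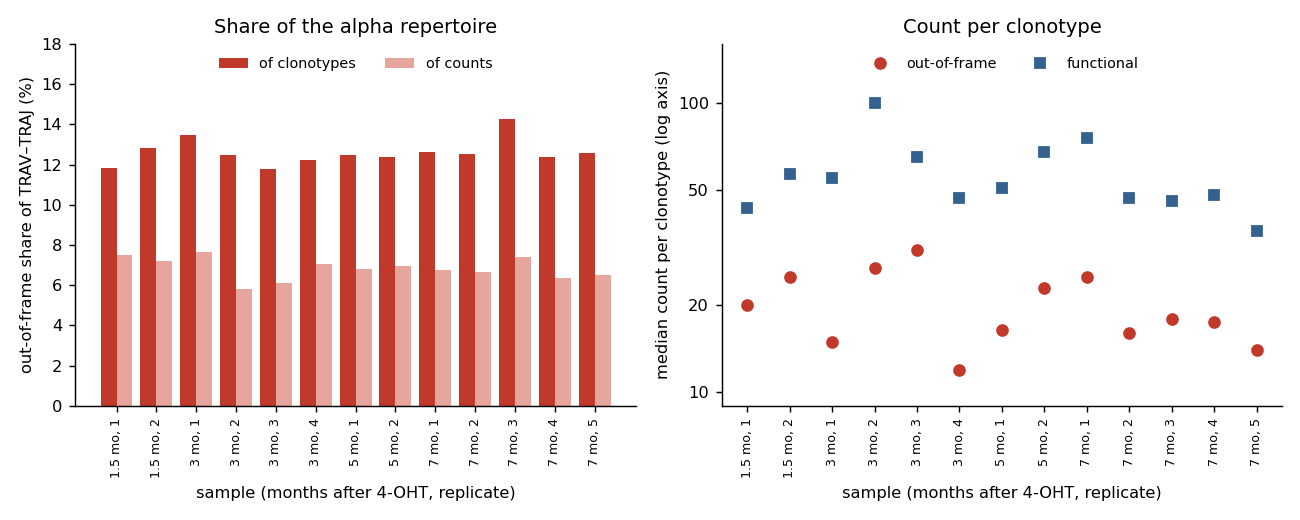
Left, out-of-frame share of TRAV-TRAJ clonotypes and of their counts (percent, bars) in each of the 13 samples, ordered by months after 4-OHT. Right, median count per clonotype of each class in the same samples (log axis, a point per class and sample), with the out-of-frame median below the functional median in all 13 samples.

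The first question was how abundant these transcripts were. The median count of an out-of-frame clonotype was 20 and 25 at 1.5 months, 15, 27, 31 and 12 at 3 months, 16.5 and 23 at 5 months, and 25, 16, 18, 17.5 and 14 at 7 months. The functional median of the same samples was 43.5 and 57, then 55, 100, 65 and 47, then 51 and 68, then 76, 47, 46, 48 and 36. Out-of-frame medians were lower in 13 of 13 samples and no out-of-frame median reached the lowest functional one. The log2 difference was -1.51 ± 0.29 (SD, n = 13), a 2.85-fold difference, with an adjusted p of 4.88e-04 by the exact two-sided sign-flip permutation test, whose smallest raw p with 13 samples is 2.44e-04 (12 measures, Benjamini-Hochberg). It was -0.82 when clonotypes that differed only in their J tail were merged, and -0.38 among clonotypes of at least 10 counts. In bulk RNA, fewer cells with a clonotype and less RNA per cell cannot be told apart.

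In-frame clonotypes with a stop codon are the other class that makes no chain, and they were far rarer, at 28 to 42 per sample. Their median count was 1 in every sample, 4.27 ± 0.41 log2 units (SD, n = 13) below the out-of-frame median (adjusted exact permutation p = 9.77e-04, 4 measures). They also carried more inserted bases, 3.16 ± 0.918 against 2.50 ± 0.158 (adjusted exact permutation p = 0.0225). A stop in the CDR3 defines this class, and how often the inserted bases supplied it was not tested. At a median of 1 count these stop-codon clonotypes are close to the detection floor, and they are a weak comparator for the out-of-frame class.

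The place of the first premature stop differed between joints. Among clonotypes whose CDR3 opens with a cysteine codon, read from there through the J segment into Trac, 37.8% ± 1.93 (SD, n = 13) met a stop within the CDR3, 15.0% ± 2.21 in the rest of J, and 47.1% ± 2.40 in the first constant exon, and 0 reached a later exon. Clonotypes with a stop in the CDR3 had a mean of the sample medians of 32.2 counts (n = 13 samples, 4231 clonotypes), against 14.2 for those with a stop in the constant exon (5302 clonotypes). The former were higher in 13 of 13 samples, by 2.21-fold (adjusted exact permutation p = 4.88e-04, 10 comparisons of counts). Without TRAJ32 the ratio was 1.33-fold (adjusted exact permutation p = 0.0199, higher in 11 of 13 samples), and with J-tail variants merged it was 1.13-fold (adjusted exact permutation p = 0.116), so this difference did not hold once J-tail variants were taken once.

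A single J segment stood apart in the out-of-frame class. TRAJ32 (chr14:54186101-54186166, plus strand, GRCm38) took 12.4%, 16.6% and 20.1% of out-of-frame clonotypes at the lowest, median and highest sample, against 1.97%, 2.58% and 2.84% of functional ones. The ranges did not overlap, the means being 16.6% ± 2.47 and 2.47% ± 0.309 (SD, n = 13). In total 1916 of the 11364 out-of-frame clonotypes used it, nearly as many as the 1941 functional clonotypes that did. With clonotypes that differed only in their J tail merged, it had 763 of 9343 out of frame, against 1593 functional ones.

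These TRAJ32 joints came in sets that differed at the same 2 bases. The germline segment and an example set from 1.5 months replicate 2, joined to TRAV12-2 with a CDR3 of 50 bases, are shown with both positions in capitals. Positions count from 1 at the 5′ end of germline TRAJ32, and in T17G the germline has T at position 17 and the clonotype has G.
Germline TRAJ32: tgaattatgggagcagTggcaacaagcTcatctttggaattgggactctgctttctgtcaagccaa
Reference form: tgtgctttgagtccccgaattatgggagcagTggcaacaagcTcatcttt
T17G form: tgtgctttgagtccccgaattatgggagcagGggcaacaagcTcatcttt
T28G form: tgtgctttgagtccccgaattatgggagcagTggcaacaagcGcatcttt
Form with both: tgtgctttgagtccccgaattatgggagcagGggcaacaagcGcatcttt

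The forms of this set had 747 counts for the reference, 129 for T17G, 100 for T28G and 52 for T17G with T28G. A set was defined as all TRAJ32 clonotypes of a sample with the same bases upstream of the last 25 of the CDR3. Among sets whose reference form had at least 40 counts, 239 of 276 (86.6%) with a length remainder of 2 after division by 3 held both single changes. The share was 29 of 77 (37.7%) with a remainder of 1 and 72 of 950 (7.58%) in frame. By sample it ran from 66.7% to 100% with a remainder of 2 and from 2.74% to 11.6% in frame, with no overlap. With a remainder of 1 it ran from 0% to 80.0%, which overlapped both. In the sets with a remainder of 2 the median ratio to the reference form was 0.171 for T17G and 0.145 for T28G. Both are above the ratio of 0.05 for a single mismatch under which the authors' correction discards the smaller clonotype.

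There were 746 such sets out of frame and 1575 in frame. J-tail variants were then merged for every J segment, taking clonotypes of a sample with the same J, the same length and the same bases before the last 20, and at most 3 mismatches in those 20, as 1. This removed 17.8% of all out-of-frame and 9.50% of all functional clonotypes, and the out-of-frame share of clonotypes was 11.6% ± 0.544 (SD, n = 13). TRAJ32 held 2.51 out-of-frame clonotypes per merged one against 1.22 functional ones. Other J segments with many such variants had them in both classes: TRAJ35 held 2.32 out of frame and 2.56 functional, TRAJ13 1.63 and 1.83, TRAJ21 1.46 and 1.60, and TRAJ15 1.42 and 1.62. TRAJ12 held 1.37 and 1.09.

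**Figure D2:**
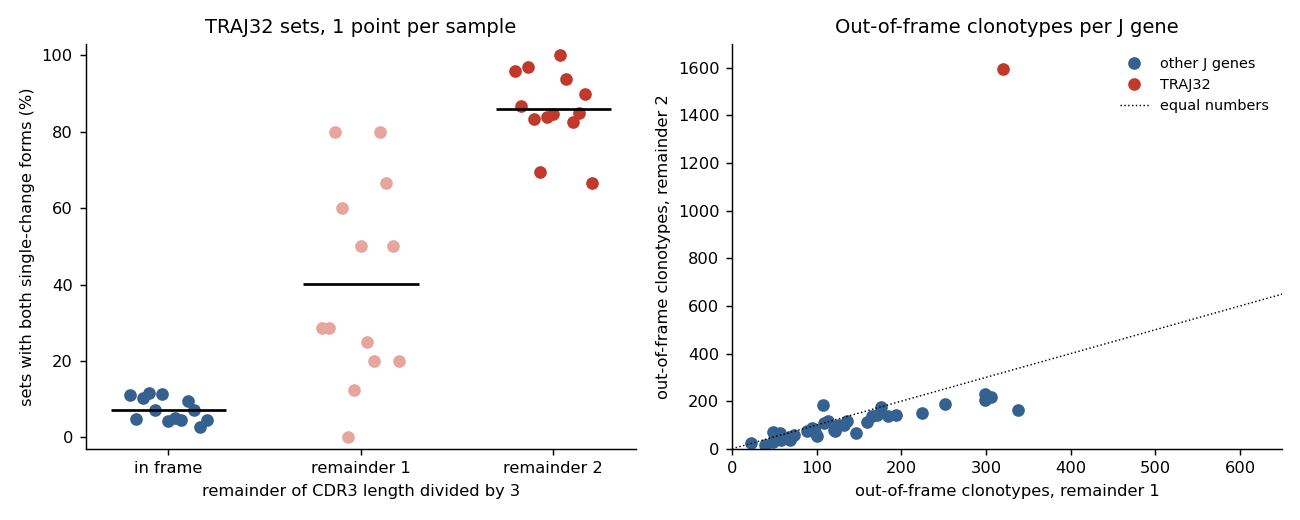
Left, share of TRAJ32 sets with at least 40 counts of the reference form that hold both single changes (percent, a point per sample, the line is the mean), by the remainder of the CDR3 length after division by 3. Right, out-of-frame clonotypes of each J gene with a remainder of 1 (horizontal axis) and of 2 (vertical axis), where TRAJ32, at 320 and 1596, lies far above the dotted line of equal numbers.

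The length remainder split the whole class almost evenly, 5673 clonotypes with a remainder of 1 and 5691 with 2, but several segments were uneven. TRAJ32 had 320 and 1596, and without it the split was 5353 and 4095. Of the 43 J genes with at least 30 out-of-frame clonotypes, 7 had more with a remainder of 2, and these were TRAJ11, TRAJ16, TRAJ18, TRAJ24, TRAJ32, TRAJ42 and TRAJ47. In TRAJ16 the 182 clonotypes with a remainder of 2 had a median of 2 counts, against 32.5 for the 108 with a remainder of 1. Out-of-frame TRAJ32 clonotypes had lower counts than those of other J segments in 13 of 13 samples, with means of the sample medians of 9.65 and 26.9 counts. The ratio was 0.362-fold (adjusted exact permutation p = 4.88e-04). In functional clonotypes TRAJ32 was also lower, in 12 of 13 samples and by a smaller ratio of 0.707-fold (adjusted exact permutation p = 8.14e-04), and the difference between these ratios was not tested. Without TRAJ32 the out-of-frame median was 0.468-fold the functional one, lower in 13 of 13 samples.

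The junctions themselves differed between the classes. The mean number of inserted bases was 2.19, 2.49 and 2.88 out of frame at the lowest, median and highest sample, and 2.07, 2.17 and 2.24 in functional clonotypes. The mean was higher out of frame in each of the 13 samples, by 0.342 ± 0.168 bases (SD, n = 13, adjusted exact permutation p = 4.88e-04). Joints with at least 6 inserted bases made up 9.47% ± 0.998 against 6.52% ± 0.315, and those with at least 10 made up 1.55% ± 0.465 against 0.802% ± 0.119 (both adjusted exact permutation p = 2.93e-04, 6 junction measures, higher in 13 of 13 samples). Joints without an inserted base were slightly rarer out of frame, 29.2% ± 1.85 against 30.8% ± 0.987 (lower in 9 of 13 samples, adjusted exact permutation p = 0.0222). Without TRAJ32 that last difference was -0.269 percentage points and did not pass the test (adjusted p = 0.660), while the difference in inserted bases stayed at 0.341. The difference in joints without an inserted base also did not pass with J-tail variants merged (-0.987 points, adjusted exact permutation p = 0.145). Nor did it without the 3 libraries that shared most (-1.35 points, adjusted exact permutation p = 0.120).

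The CDR3 was longer and more variable out of frame. Its mean length was 41.6 ± 0.337 nucleotides against 40.5 ± 0.0690, a difference of 1.16 ± 0.333 (SD, n = 13) that was positive in every sample (adjusted exact permutation p = 4.88e-04), and it was 0.565 without TRAJ32. The SD of length within a sample was 5.19 ± 0.460 against 4.10 ± 0.209 nucleotides (adjusted exact permutation p = 4.88e-04). Lengths of 35 to 46 nucleotides held 78.6% ± 2.49 of out-of-frame and 88.8% ± 0.688 of functional clonotypes, and the sample ranges, 75.8% to 82.7% and 87.6% to 89.9%, did not overlap. Both tails were fuller out of frame: 0.840% against 0.267% were shorter than 29 nucleotides (higher in 12 of 13 samples) and 1.00% against 0.236% were longer than 52 (higher in 13 of 13). The adjusted exact permutation p was 0.00122 for the short and 2.93e-04 for the long tail. These shares by length include TRAJ32 and unmerged J-tail variants, and they were not tested without them. With the CDR3 limited to a cysteine start and 21 to 66 bases the difference in the SD was 0.593.

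**Figure D3:**
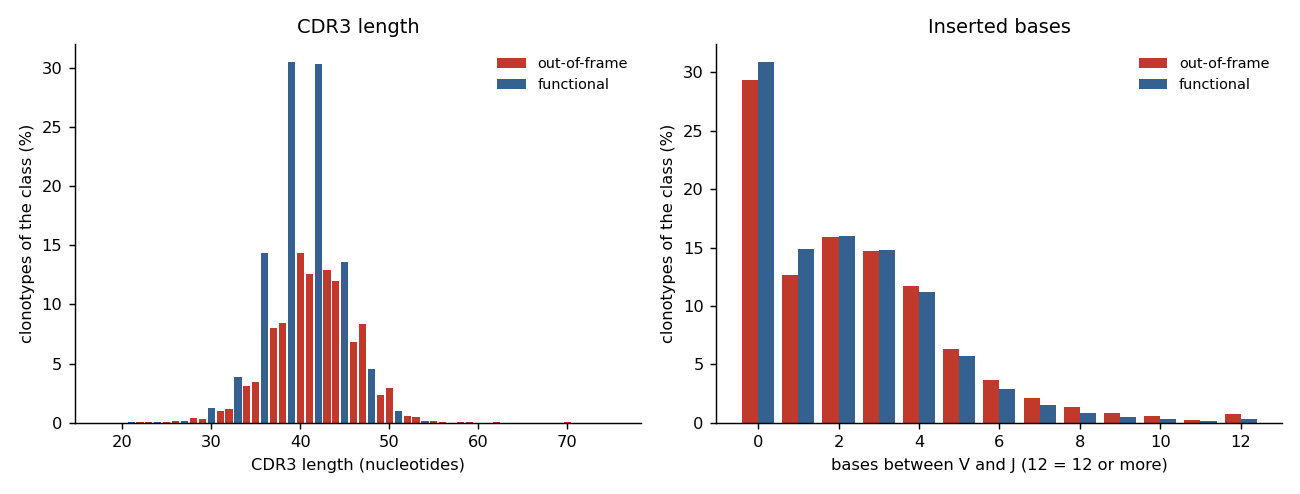
Left, CDR3 length (nucleotides) and right, bases between V and J, for out-of-frame and functional clonotypes pooled over the 13 samples, as percent of the clonotypes of each class (bars). Out-of-frame clonotypes spread further beyond the 35 to 46 nucleotides that hold 88.8% of functional ones. TRAJ32 and unmerged J-tail variants are included.

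The bases kept from each segment were counted next. The V end kept 12.3 ± 0.185 bases out of frame and 12.3 ± 0.0440 in functional clonotypes, a difference of 0.0279 ± 0.173 (adjusted exact permutation p = 0.616). The J start kept 27.6 ± 0.260 against 26.8 ± 0.0591 bases, a difference of 0.756 ± 0.292 that was positive in 13 of 13 samples (adjusted exact permutation p = 4.88e-04). It was 0.390 with J-tail variants merged and 0.214 without TRAJ32. Compared within each J gene and averaged with the out-of-frame numbers as weights, the difference in J bases was 0.0878 ± 0.205 (higher in 8 of 13 samples) and did not pass (adjusted exact permutation p = 0.189, 6 added tests), so it was not separated from which J genes were used. Within J genes the difference was 0.290 ± 0.165 for inserted bases (13 of 13 samples, adjusted exact permutation p = 7.32e-04) and 0.429 ± 0.272 nucleotides for CDR3 length (11 of 13, adjusted exact permutation p = 0.00195). The deposited J start lay before the annotated 5′ end of the segment in 16.6% of out-of-frame and 17.3% of functional clonotypes. With the J start held to the annotated end, the difference in inserted bases was 0.307 ± 0.178 (13 of 13, adjusted exact permutation p = 7.32e-04).

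V segment use was compared by family, because mouse TRAV genes were duplicated along the locus and reads of near-identical copies can be split. Each clonotype was counted once. The quasi-likelihood test of edgeR, adjusted by Benjamini-Hochberg, called 15 of 19 families (78.9%), 6 higher (31.6%) and 9 lower (47.4%) out of frame, and 7 (36.8%) had sample ranges that did not overlap. The 5 higher families with the smallest adjusted p were TRAV1, TRAV11, TRAV15, TRAV3 and TRAV13, and the 5 lower ones were TRAV14, TRAV7, TRAV17, TRAV4 and TRAV16. The remaining calls were TRAV2 (higher) and TRAV5, TRAV9, TRAV10 and TRAV21 (lower), and each was lost in at least 1 alternative. The adjusted p of TRAV2 was 0.0978 with DESeq2, that of TRAV10 was 0.0671 with library totals, that of TRAV5 was 0.0956 among clonotypes of at least 2 counts, that of TRAV9 was 0.270 with summed counts, and that of TRAV21 was 0.0915 with those 1 or 2 indels from a larger functional clonotype removed. With library totals alone as the scaling, 8 families were higher and 8 lower, and the median log2 difference of all families moved from -0.07 to 0.08. The split was 10 higher and 7 lower without 7 months replicate 5 (median 0.15), and 9 higher and 7 lower both among clonotypes of at least 2 counts and with those 1 or 2 indels from a larger functional clonotype removed.

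TRAV1 (chr14:52427928-52428876), the V segment farthest from the J cluster and the one used by mucosal-associated invariant T cells, took 2.66%, 3.18% and 4.68% of out-of-frame clonotypes at the lowest, median and highest sample. It took 0.516%, 0.752% and 0.969% of functional ones, and the log2 difference was 1.99 ± 0.12 (SE, adjusted p = 1.96e-14), or 3.97-fold. TRAV11 (chr14:53135122-53519859 from the first to the last copy), the family of the invariant natural killer T cell receptor, took 2.65% ± 0.877 against 0.569% ± 0.125 (SD, n = 13), with a log2 difference of 2.04 ± 0.16 (SE) and a fold of 4.12. Of its 299 out-of-frame and 449 functional clonotypes, 69 and 29 used TRAV11N, which is annotated as a pseudogene. The order of these families was within their errors, and TRAV1 had the higher value with J-tail variants merged, without TRAJ32 and with summed counts. Both were higher in 13 of 13 samples with no overlap. The invariant pairings themselves were few: TRAV11 with TRAJ18 was found in 21 out-of-frame and 29 functional clonotypes over all samples, and TRAV1 with TRAJ33 in 4 and 7.

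TRAV15 was 2.67-fold higher (3.44% ± 0.687 against 1.16% ± 0.217), and TRAV3, with 1452 clonotypes the largest of the higher families, was 2.07-fold higher (12.8% ± 1.39 against 5.56% ± 0.283, SD, n = 13). TRAV13 was 1.41-fold higher, at 11.3% ± 1.27 against 7.23% ± 0.530. The adjusted p by edgeR was 2.27e-12 for TRAV15, 2.10e-14 for TRAV3 and 3.87e-08 for TRAV13, and in these 3 families every sample was higher and the ranges did not overlap. Of 70 single V genes tested, 25 (35.7%) were higher and 20 (28.6%) lower. Among them 3 of 3 tested TRAV3 genes, 2 of 2 TRAV15 genes and 6 of 8 TRAV13 genes were higher and 0 were lower.

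The lower families were led by TRAV14, which took 5.52%, 7.46% and 9.30% of out-of-frame clonotypes at the lowest, median and highest sample and 14.3%, 15.0% and 15.6% of functional ones. The log2 difference was -1.16 ± 0.06 (SE, adjusted p = 1.90e-15), and 7 of 7 tested TRAV14 genes were lower. TRAV7, the most used functional family, had 11.8% ± 1.38 out of frame and 18.8% ± 0.708 functional, 0.563-fold, and 5 of its 10 tested genes were lower and 0 higher. Neither family overlapped between the classes. TRAV17 (0.439-fold) and TRAV16 (0.595-fold) were lower in 13 of 13 samples with overlapping ranges. TRAV4 was 0.718-fold as a family, lower in 12 of 13 samples, but its genes split, 2 higher and 2 lower of 5.

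**Figure D4:**
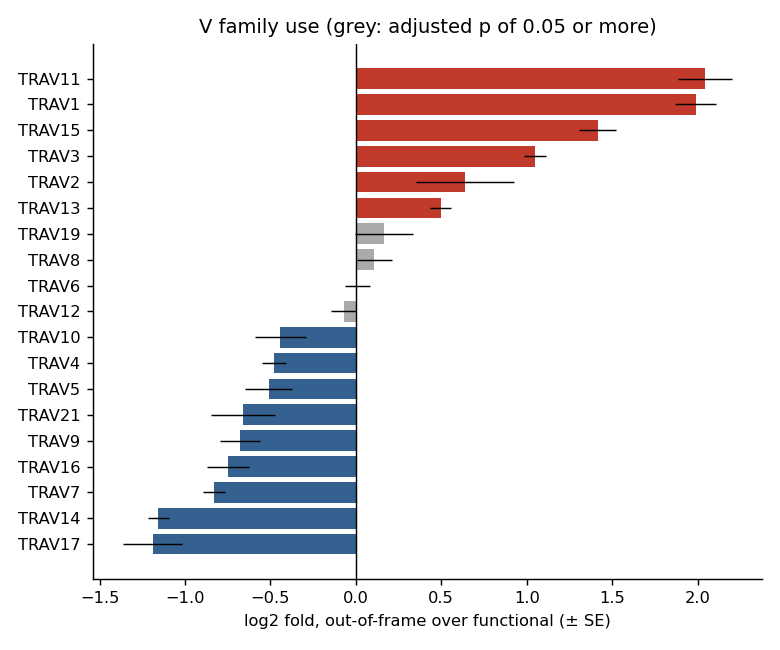
V family use as the log2 fold of out-of-frame over functional clonotypes in edgeR (bars, with the standard error as the line), for the 19 families tested. Grey bars did not pass the test, TRAV11 (2.04) and TRAV1 (1.99) lie at the top, and TRAV17 (-1.19) and TRAV14 (-1.16) at the bottom, each pair within its errors.

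V segments annotated as pseudogenes, a class not listed as able to encode a working chain, took 2.87% ± 0.510 of out-of-frame and 0.323% ± 0.0940 of functional clonotypes (SD, n = 13), and were higher in 13 of 13 samples (327 and 250 clonotypes). They included TRAV13-3 (98 out of frame, 112 functional), TRAV8-2 (89 and 76), TRAV11N (69 and 29) and TRAV4D-2 (38 and 13). TRAV12-4 and TRAV5N-2 were found only out of frame, with 10 and 6 clonotypes. The 10 dual-use genes, which can also join to TCRδ, took 9.92% ± 1.76 out of frame and 11.0% ± 0.503 in functional clonotypes. Of the 8 tested, 3 were higher and 2 lower, with a median log2 difference of -0.11 (0.01 over all 70 single V genes). These counts lay near the rates over all 70 single V genes, of which 25 (35.7%) were higher and 20 (28.6%) lower. The V segments nearest the J cluster, TRAV17 to TRAV21, took 2.52% ± 0.623 and 3.04% ± 0.276, and 2 of their 3 tested families, TRAV17 and TRAV21, were lower and 0 higher, beside 9 of 19 lower (47.4%) over all families. Their median log2 difference was -0.66, against -0.07 over all families.

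J segment use was tested in the same way, and the test called 20 of 43 J genes (46.5%), 8 higher (18.6%) and 12 lower (27.9%) out of frame, and 4 (9.3%) had sample ranges that did not overlap. Library totals alone gave 7 higher and 21 lower and moved the median log2 difference from -0.04 to -0.24. TRAJ32 was 7.73-fold higher (log2 2.95 ± 0.09, SE, adjusted p = 4.68e-70) and 1.95 on the log2 scale with J-tail variants merged. The other higher J genes named by the rule were TRAJ16, TRAJ45, TRAJ35, TRAJ2, TRAJ38, TRAJ28 and TRAJ12.

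TRAJ16 (chr14:54203134-54203194) took 0.877%, 2.61% and 3.72% of out-of-frame clonotypes at the lowest, median and highest sample and 1.03%, 1.21% and 1.56% of functional ones, 2.33-fold by the fit (adjusted p = 3.27e-17). It was higher in 12 of 13 samples, but its log2 difference was 0.45 and did not pass the test when counts were summed in place of clonotypes. TRAJ45 (chr14:54172828-54172890) was 2.10-fold higher, 1.46% ± 0.382 against 0.788% ± 0.117, and TRAJ35 (chr14:54183774-54183838) was 1.95-fold higher, 2.06% ± 0.699 against 1.22% ± 0.331 (SD, n = 13). TRAJ2 (1.65-fold), TRAJ38 (1.63-fold) and TRAJ28 (1.54-fold) were higher in 13, 9 and 9 of 13 samples. TRAJ12 was 1.24-fold higher (log2 0.31, adjusted p = 0.00217), in 8 of 13 samples. Its log2 difference was 0.12 with library totals and 0.01 with J-tail variants merged, neither past the threshold, and -0.09 among clonotypes of at least 10 counts and -0.50 with summed counts, where it passed the test in the lower direction (adjusted p = 0.0117).

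Of the lower J genes, TRAJ44 (chr14:54173690-54173750) had 0.371%, 0.721% and 1.40% out of frame at the lowest, median and highest sample and 1.29%, 1.55% and 1.83% functional, 0.527-fold (adjusted p = 9.22e-07). TRAJ39 (chr14:54179962-54180024) took 1.34% ± 0.271 against 2.42% ± 0.190, 0.634-fold, with no overlap. TRAJ57 (0.627-fold) and TRAJ9 (0.761-fold) also did not overlap between the classes. With summed counts in place of clonotypes TRAJ9 (log2 -0.26), TRAJ13 (-0.62), TRAJ15 (-0.44) and TRAJ49 (-0.51) did not pass the test, nor did TRAJ28 (0.65) among the higher genes. TRAJ40 was 0.682-fold and TRAJ13 0.722-fold, both lower in 13 of 13 samples. TRAJ49 (0.758-fold) and TRAJ15 (0.777-fold) were lower in 12 of 13, and TRAJ15 did not pass the test with J-tail variants merged (log2 -0.15, adjusted p = 0.157). The rest of the lower calls were TRAJ30, TRAJ47, TRAJ52 and TRAJ58, of which none passed with summed counts (adjusted p = 0.250, 0.222, 0.729 and 0.147), at log2 differences of -0.29, -0.998, -0.11 and -1.14 against -0.34, -0.65, -0.40 and -0.55 by clonotypes. Among clonotypes of at least 10 counts only TRAJ58 passed (-0.65, adjusted p = 0.0414), with TRAJ30 at -0.27, TRAJ47 at -0.61 and TRAJ52 at -0.40. TRAJ25, with 3 clonotypes, and TRAJ41, with 6, were found only out of frame and were too rare to test.

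**Figure D5:**
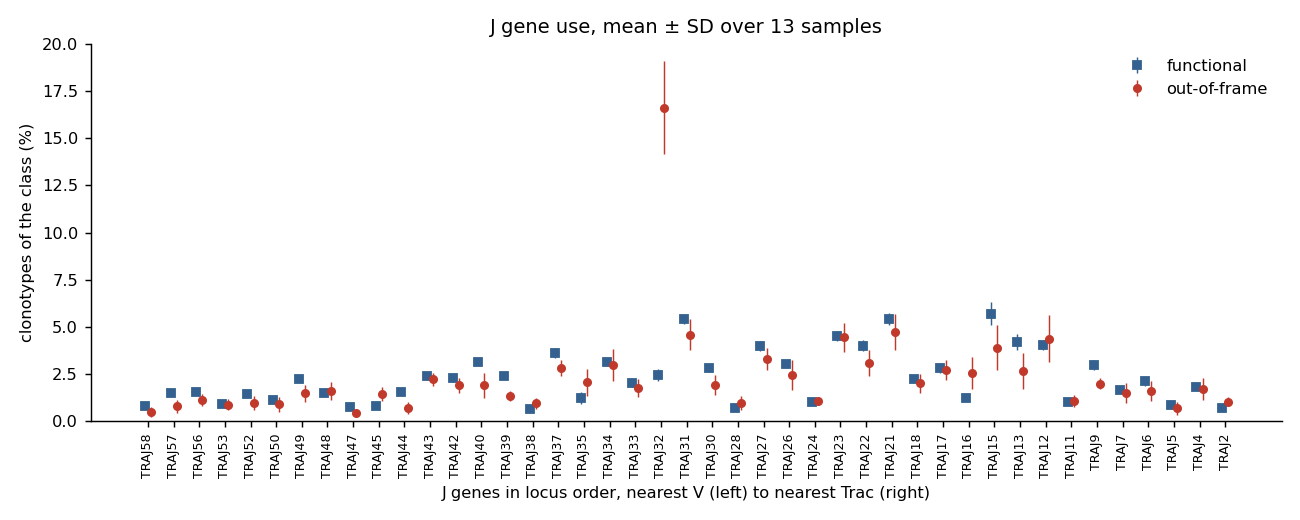
J gene use in out-of-frame and functional clonotypes (percent of the clonotypes of each class, mean and SD over 13 samples), for the 43 J genes tested in locus order from the V side to the Trac side. TRAJ32, at 16.6% out of frame and 2.47% functional, stands far above the other segments. J-tail variants are counted separately here. With them merged TRAJ32 had 763 out-of-frame clonotypes, and the next J gene, TRAJ31, had 511.

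By position, the J segments fell into 3 regions. Those nearest V (TRAJ41 and higher) took 15.1% ± 1.09 of out-of-frame and 18.9% ± 0.764 of functional clonotypes (SD, n = 13). Of 13 tested genes there, 1 was higher and 6 lower, with a median log2 difference of -0.23, against -0.04 over all 43 J genes. Over those 43 genes 8 (18.6%) were higher and 12 (27.9%) lower, and the counts of no region were tested against these rates. The middle (TRAJ24 to TRAJ40) took 44.8% ± 2.55 against 35.7% ± 0.796, with 4 higher and 3 lower of 14 and a median of -0.02. Those nearest Trac (TRAJ23 and lower) took 40.1% ± 2.57 against 45.4% ± 1.07, with 3 higher and 3 lower of 16 and a median of 0.03. The clonotype shares of the 3 regions add up to the whole, so TRAJ32 weighs on all of them. With TRAJ32 clonotypes left out of both classes, the region nearest V took 18.1% ± 1.41 against 19.3% ± 0.782 (lower in 12 of 13 samples), the middle 33.8% ± 1.94 against 34.1% ± 0.701 (lower in 8), and the region nearest Trac 48.1% ± 2.15 against 46.6% ± 1.04 (higher in 11). The direction of the middle region and of the region nearest Trac thus turned on that gene. The mean distance of J from Trac was 29.6 ± 0.619 and 29.4 ± 0.329 kb (difference 0.139 ± 0.514, adjusted exact permutation p = 0.417), and it turned to -0.694 kb without TRAJ32 (adjusted exact permutation p = 0.00195) and to -0.564 kb with J-tail variants merged (adjusted exact permutation p = 0.00544). The mean V position differed by -5.28 ± 15.1 kb (adjusted exact permutation p = 0.304). That difference was 7.52 kb without TRAJ32 (adjusted exact permutation p = 0.0601) and 4.12 kb with J-tail variants merged (adjusted exact permutation p = 0.353).

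Because successive rearrangements use farther segments, V and J positions are known to be coupled. Within samples, the Spearman correlation of V and J position across clonotypes was -0.415 ± 0.0423 out of frame and -0.420 ± 0.0134 in functional clonotypes (SD, n = 13), where clonotypes of a sample share a library. The difference was 0.00506 ± 0.0471 (adjusted exact permutation p = 0.701).

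Use of V family and J region pairs was compared last. The test called 33 of 43 pairs (76.7%), 16 higher (37.2%) and 17 lower (39.5%), and 11 (25.6%) did not overlap between the classes. The middle J region holds TRAJ32, and without that gene the test called 27 of 43 pairs, 14 higher and 13 lower. TRAV1 with the middle J region was 5.22-fold higher, 1.66% ± 0.646 against 0.320% ± 0.131 (SD, n = 13, adjusted p = 3.62e-32). TRAV11 with the middle region was 4.62-fold higher, and TRAV3 was 2.61-fold higher with the middle region and 2.36-fold with the region nearest Trac. TRAV14 with the region nearest V was the lowest at 0.350-fold, 1.07% ± 0.277 against 3.13% ± 0.205 (adjusted p = 1.31e-23), and with the region nearest Trac it was 0.506-fold. TRAV7 and TRAV4 with the region nearest Trac were 0.535-fold and 0.597-fold. Each of these 8 pairs went in its direction in 13 of 13 samples and did not overlap. With summed counts the log2 difference was -1.62 for TRAV4 and -1.52 for TRAV7 with the region nearest Trac, against -0.74 and -0.90 by clonotypes. It was -1.66 for TRAV14 with that region and -2.19 with the region nearest V, against -0.98 and -1.52. For TRAV1 with the middle region it was 3.04, against 2.38. Some called pairs departed from their family: TRAV4 with the middle region was higher (log2 0.37, adjusted p = 7.74e-04) while the family was lower, but it was -0.21 without TRAJ32 (adjusted p = 0.0899) and lower, at -0.40, with summed counts (adjusted p = 0.0227). TRAV12 with the middle region was higher (log2 0.60) and with the region nearest Trac lower (log2 -0.26), and neither passed without TRAJ32 (0.17 and -0.02). TRAV8 with the region nearest V was higher (log2 1.12, and 1.35 without TRAJ32). The families TRAV12 and TRAV8 did not pass the main test. As a family TRAV8 passed as higher without TRAJ32 (log2 0.35, adjusted p = 0.00206), with library totals (0.26, adjusted p = 0.0185) and with J-tail variants merged (0.25, adjusted p = 0.0153). It did not with summed counts (0.23, adjusted p = 0.137). TRAV12 passed as higher among clonotypes of at least 2 counts (0.22, adjusted p = 0.00205) and as lower with summed counts (-0.31, adjusted p = 0.00549). The pairs that departed from their family were chosen after their values were seen.

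Sharing of out-of-frame joints between samples was limited. Of 10866 distinct out-of-frame clonotypes, 10400 were listed in 1 sample, 440 in 2, 24 in 3, 1 in 4 and 1 in 8. Within a sample, 8.34% ± 4.00 (SD, n = 13) of out-of-frame and 24.4% ± 4.22 of functional clonotypes were also found elsewhere, a difference of -16.1 ± 0.690 points (lower in 13 of 13, adjusted exact permutation p = 4.88e-04), and of -13.5 points without the 3 libraries that shared most. The functional class holds more clonotypes, and when it was drawn down to the out-of-frame number of each sample its share was 5.44% ± 0.732. The out-of-frame share was then higher by 2.90 ± 3.32 points in 11 of 13 samples (exact permutation p = 0.00317). Without these 3 libraries, the excess was 1.42 ± 1.67 points (exact permutation p = 0.00977, n = 10). With J-tail variants merged the excess was 4.38 ± 4.05 points (higher in 12 of 13 samples, exact permutation p = 4.88e-04). Without TRAJ32 it was 3.96 ± 3.72 points (13 of 13, exact permutation p = 2.44e-04). Among clonotypes of at least 10 counts it turned to -1.69 ± 0.505 points (exact permutation p = 2.44e-04), and after removal of clonotypes 100 times more abundant in another library it was 0.601 ± 1.86 (exact permutation p = 0.285). Out-of-frame joints found in several samples had a mean of 2.26 inserted bases, against 2.51 for those in a single sample. In functional clonotypes the means were 1.57 and 2.39. Without the 3 libraries the means were 2.44 and 2.48 out of frame and 1.36 and 2.36 in functional clonotypes.

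Unevenness was compared by the Gini coefficient, which is 0 for equal clonotypes. It was 0.656 ± 0.0331 out of frame and 0.635 ± 0.0469 in functional clonotypes (SD, n = 13), higher in 10 of 13 samples (adjusted exact permutation p = 0.0253), and the difference turned to -0.0164 and -0.0735 when clonotypes under 2 and under 10 counts were left out. The sign thus changed with the rarest clonotypes. Across the 13 samples the out-of-frame and functional coefficients correlated (Pearson r = 0.849, permutation p = 3.80e-04, adjusted p = 5.70e-04; Spearman rho = 0.890, permutation p = 1.10e-04, adjusted p = 1.65e-04, 3 relations), and r was 0.866 within time points and 0.797 once the 2 samples with the most extreme functional coefficient were dropped. Both classes were read from the same library.

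Across time after 4-OHT, none of the 24 comparisons of 3, 5 or 7 months with 1.5 months passed adjustment. The p-values came from exact permutation of 13 samples for 8 measures (540540 arrangements). The closest was the CDR3 length difference between the classes, which was 1.19 and 1.56 nucleotides at 1.5 months and 0.395 and 0.769 at 5 months (exact permutation p = 0.0228, adjusted p = 0.548), and it was 1.23 ± 0.278 (SD, n = 5) at 7 months. The mean out-of-frame share at 1.5 and at 7 months was 12.3% ± 0.712 (SD, n = 2) and 12.9% ± 0.792 (SD, n = 5) (exact permutation p = 0.671, adjusted p = 1.00). The log2 ratio of the median counts was -1.16 ± 0.05 (n = 2), -1.70 ± 0.42 (n = 4), -1.60 ± 0.05 (n = 2) and -1.47 ± 0.11 (n = 5) at 1.5, 3, 5 and 7 months. The 7-month difference of -0.31 did not pass (exact permutation p = 0.361), but it did without 3 months replicate 3 (adjusted p = 0.0418).

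Of the 8 trends with months, that of the J position had the smallest p, and it did not pass adjustment (out-of-frame minus functional distance from Trac, Pearson r = -0.611, permutation p = 0.0258, adjusted p = 0.206; Spearman rho = -0.506, permutation p = 0.0813, adjusted p = 0.504; n = 13). After the 2 samples farthest from the median time were dropped, r was -0.411.

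A change of the out-of-frame excess with months was tested for each V family and J gene. The class by months term of edgeR called 0 of 19 families (0%) and 0 of 43 J genes (0%), with 3 families and 2 J genes at an unadjusted p under 0.05, and DESeq2 also called 0 in each. With the replicate number as a block edgeR called 1 family, TRAV5, at 0.16 ± 0.04 per month (SE, adjusted p = 0.0135). The smallest p among J genes was that of TRAJ32, whose log2 difference had a slope of -0.09 ± 0.04 per month (SE, unadjusted p = 0.0140, adjusted p = 0.602). TRAJ32 took 18.8% ± 0.738 of out-of-frame clonotypes at 1.5 months (n = 2), 18.4% ± 1.83 at 3 months (n = 4), 14.1% ± 0.592 at 5 months (n = 2) and 15.3% ± 2.11 at 7 months (n = 5). Among families it was that of TRAV6, at 0.07 ± 0.03 per month (SE, unadjusted p = 0.0195, adjusted p = 0.227). TRAV6 took 9.50% ± 0.966 of out-of-frame clonotypes at 1.5 months, 10.6% ± 1.27 at 3 months, 9.67% ± 0.650 at 5 months and 11.2% ± 1.75 at 7 months.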

How the data were processed

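TCRα cDNA of 13 samples was made by 5′ RACE, in which the template-switching oligo carried random bases, and read on a MiSeq. The authors assembled clonotypes with MiXCR and applied the frequency-based correction of VDJtools, and the deposited counts per clonotype are raw. Whether they are reads or molecules is not stated, so intervals would cover counting only. The deposited fraction of each clonotype and the deposited V end and J start positions (unit other than expression) came from the same tables, and the fraction was used in no test. The authors' filter against non-functional clonotypes had not been applied to these tables. Genome positions are GRCm38 with GENCODE genes, and all 106 V and 46 J names matched.

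Inserted bases were the bases between V end and J start, and were set to 0 where the V and J alignments overlapped. Class measures were computed per sample, each clonotype counted once, and compared by exact two-sided sign-flip permutation within samples. Segment use was tested on clonotype numbers in R 4.3.3 by the quasi-likelihood F test of edgeR 4.0.16 (sample and class as terms, filterByExpr, TMM), with DESeq2 1.42.0 as an alternative. Time points were compared by exact permutation. The named segments were, by rule, the 5 V families, 8 J genes and 4 pairs with the smallest adjusted p under 0.05 in each direction, the single smallest p where the months term called 0, and for sequences the 6 clonotypes in the most samples (ties by mean share of counts) and the most abundant of each time point. The members and lists were chosen with earlier results of these data known. Tests of counts by stop position and remainder, of junction tails and of TRAJ32 forms, merging of J-tail variants, removal of TRAJ32, comparison within J genes, the J start held to the annotated segment and sharing at equal number (20 draws) were chosen after the data were seen. On simulated data of 43 J genes, the test recovered 95% of 5 genes changed by 1.5-fold, with 5.18% of the calls false. At 2-fold it recovered 100%, with 6.67% false. It made a call in 2 of 20 simulations without a change. The simulations held no larger change and no sets of J-tail variants, so they do not cover a shift like that of TRAJ32. Python 3.11.15, numpy 2.4.6, pandas 2.3.3, scipy 1.17.1 and matplotlib 3.10.9 were used.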

Additional observations from a re-analysis of the deposited data

Results flagged for a closer look

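At 7 months, replicate 3 had the highest out-of-frame share of clonotypes, 14.3%, while the other 4 samples of that time point lay between 12.4% and 12.6%. At 3 months, replicate 3 had the smallest gap between the classes, a log2 ratio of out-of-frame to functional median count of -1.07, while the other 3 lay between -1.97 and -1.87. These were 2 of 54 checks, each of a measure at 3 or 7 months, for a sample far from the rest, and chance marks about 1 in 20.

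The out-of-frame minus functional difference in V bases kept was positive in every sample at 7 months, at 0.0311 bases or more, and negative in both samples at 5 months, at -0.109 or less. This difference between time points was not tested.

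Outside the TRAV-TRAJ rearrangements, 21 out-of-frame clonotypes joined TRDV to TRDJ, with 426 counts in 9 samples, beside 76 functional ones. They were used in no comparison.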

How the results depend on the processing

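The Gini difference turned to -0.0164 (at least 2 counts) and -0.0735 (at least 10), and did not pass the test at 0.0211 (without the 3 libraries of highest overlap), 0.0142 (thinned to equal depth), 0.00642 (J-tail variants merged) and 0.00670 (without TRAJ32). With a sample left out it ran from 0.0171 to 0.0244, and did not pass without 3 months replicate 2, 5 months replicate 2 or 7 months replicate 1. The J position difference turned to -0.564 kb (merged) and -0.694 kb (without TRAJ32) and passed at 0.489 kb when clonotypes 1 or 2 indels from a larger functional clonotype were removed, as did the V position at -10.8 kb. The V position difference took the other sign at 4.12 kb (merged) and 7.52 kb (without TRAJ32), and neither value passed. The share without inserted bases did not pass at -1.35 (without the 3 libraries), -0.987 (merged) and -0.269 points (without TRAJ32). J bases kept did not pass at 0.0878 within J genes. V bases kept passed at 0.156 among clonotypes of at least 10 counts. Sharing turned to 2.90 points at equal number. The 7 minus 1.5 months difference in the log2 median count ratio ran from -0.35 to -0.28 with a sample left out.

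The replicate numbers did not pair the samples, with same-number correlations from -0.438 to 0.216 over 14 pairs. The mean difference per replicate number as a replicate block allows no p under 0.0625, and at that p it gave -1.48 (median count), 0.357 (inserted bases), -1.85 (no inserted base), 1.18 (length), 1.15 (length SD), 0.760 (J bases kept) and -16.2 (sharing). The Gini difference was 0.0111 there (exact permutation p = 0.375). With a block the months term called 1 V family, TRAV5 (adjusted p = 0.0135).

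Calls were 45 with single V genes, 10 for J genes with summed counts, and, against in-frame stop-codon clonotypes, 5 of 12 V families, 9 of 11 J genes and 4 of 14 pairs tested. In that comparison TRAV7 turned to 0.085 (adjusted p = 0.724) and TRAJ15 to 0.50 (adjusted p = 0.136), and neither passed the test. TRAJ12 turned to -1.52 and passed in the lower direction (adjusted p = 9.995e-08). TRAV3 (0.57), TRAV15 (0.29) and TRAJ13 (-0.20) did not pass, nor did the pairs of TRAV3 (0.31), TRAV14 (-0.55) and TRAV7 (-0.11) with the region nearest Trac. TRAJ12 was also -0.0864 (at least 10 counts) and -0.50 (summed counts). The cause of these changes was not tested. Over all alternatives 776 values of comparisons and 853 of named segments kept their side of the threshold (counts within 1.5 times), with their direction where it was called, and 15 of named segments and pairs kept their direction but no longer passed, 6 of them against stop-codon clonotypes, beside the 5 reversals of TRAV7, TRAJ15 and TRAJ12 given here. The stop-codon class held 28 to 42 clonotypes per sample, so few segments could be tested against it.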
